A study of Homo sapiens with 4 samples.

Results

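The 39 genes described here act in G2 phase and mitosis. They were taken by symbol from the 26255 genes of the table, and all 39 had a row and passed the filter on low values in every library. Each group was 1 library of A549, a long-established line from a human lung adenocarcinoma. The tumor libraries came from A549 xenografts in immunodeficient mice, where solid-type or acinar-type areas were laser-microdissected. The single culture was GFP-labelled A549 cells sorted from 3D colonies grown without cancer-associated fibroblasts (CAFs), and the mix culture was the same kind of cell sorted from colonies grown with them. The mix title was read as the CAF coculture because the protocols name no other condition. The sources used here do not give whether both tumor types came from 1 mouse, whether the tumor cells carried GFP, which species the CAFs came from or how old tumors and colonies were. With 1 library per group there is no replicate check and no p-value, and every difference is between libraries. The number of fragments counted on genes was estimated from the deposited values. It was lower in the tumors (about 7270000 for solid and 6630000 for acinar) than in the cultures (10970000 for single and 12180000 for mix).

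As background, a cell enters mitosis when cyclin A and cyclin B activate the kinase CDK1. Polo and Aurora kinases then build the spindle, the kinetochore ties chromosomes to it, and the spindle checkpoint holds back the anaphase-promoting complex until all chromosomes are attached. Most of these genes are transcribed mainly late in the cycle. The DREAM and MuvB protein complexes, with NF-Y, MYBL2 and FOXM1, act on their promoters through the cell cycle homology region (CHR) and CCAAT boxes. The summed level of such genes is therefore widely used as a reading of how many cells are dividing.

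The promoters were searched for the CHR and CCAAT letters, which the choice of genes did not use. From the background above an excess over all promoters was foreseen, so it is not independent evidence about this list. RefSeq promoters (GRCh38.p14, 250 bases before to 50 after the start) were matched for 32 of the 39 genes, as 42 promoters. The CHR letters searched were TTTGAA and TTTAAA and the NF-Y box was CCAAT, each on both strands. TTTAAA reads the same on both strands, and it can be part of a TATA-like stretch. A CHR match was in 32 of the 42 promoters (76.2%) and in 24.0% of all 35116 promoters of the same length. CCAAT was in 30 (71.4%), against 34.6%, and both were in 24 (57.1%, from 21 genes), against 9.27%. A match is a description of letters and not a shown binding site. The 150 bases before the start are shown for 5 of the 21 genes that hold both: cyclins B1 and B2, CDC20, PLK1 and CENPA. On the log2(scaled count + 1) scale, PLK1 had the lowest acinar over solid ratio of the 39 genes. CENPA had the highest mix over single ratio. A link between the matches and the levels was not tested. CHR and CCAAT matches on either strand are in capitals.
CCNB1 (chr5:69167000-69167149, plus strand): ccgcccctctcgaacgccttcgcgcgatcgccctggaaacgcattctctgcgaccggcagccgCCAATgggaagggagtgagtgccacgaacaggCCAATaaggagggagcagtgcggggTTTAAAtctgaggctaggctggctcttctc
CCNB2 (chr15:59104996-59105145, plus strand): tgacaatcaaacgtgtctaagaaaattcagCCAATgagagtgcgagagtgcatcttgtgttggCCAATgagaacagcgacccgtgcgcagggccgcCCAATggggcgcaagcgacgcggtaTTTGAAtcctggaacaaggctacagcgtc
CDC20 (chr1:43358831-43358980, plus strand): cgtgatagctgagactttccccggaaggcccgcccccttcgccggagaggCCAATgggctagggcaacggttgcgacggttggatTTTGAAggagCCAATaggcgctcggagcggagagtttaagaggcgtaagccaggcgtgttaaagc
PLK1 (chr16:23678739-23678888, plus strand): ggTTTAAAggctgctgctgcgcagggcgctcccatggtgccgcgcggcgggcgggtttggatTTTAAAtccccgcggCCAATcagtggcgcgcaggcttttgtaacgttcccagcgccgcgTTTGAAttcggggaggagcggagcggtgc
CENPA (chr2:26785906-26786055, plus strand): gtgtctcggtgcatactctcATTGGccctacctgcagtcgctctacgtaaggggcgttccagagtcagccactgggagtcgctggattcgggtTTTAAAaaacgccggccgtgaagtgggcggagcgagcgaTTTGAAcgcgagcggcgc
In CCNB2 the CCAAT boxes began 120, 87 and 54 bases before the start and the CHR 29 bases before it. In CCNB1 the boxes began 87 and 55 bases before the start and the CHR 30. PLK1 had a TTTGAA 29 bases before its start, besides TTTAAA at 148 and 88.

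Across the 4 libraries, all 39 genes were highest in the mix culture and second in the single culture. The share of all genes in this full order was not computed. Counted separately, 38.7% of all genes had both cultures above both tumors, and 52.0% were higher in the mix than in the single culture. For the 39 genes the tumors were lowest throughout, and neither tumor was higher throughout. Of these genes, 19 were higher in the acinar tumor (50.8% of all genes were) and 20 in the solid tumor. Levels are in scaled counts, which are the deposited normalised counts after division of every library by 1 shared constant. The summed level of the 39 genes was 1103 and 1122 in the solid and acinar tumors, and 3745 and 4842 in the single and mix cultures. As a share of all counts this was 0.109%, 0.109%, 0.384% and 0.494%. Abundant genes weigh more in the sum than low ones. In the solid tumor CDC25B was at 154 and BUB3 at 147. In the single culture CDC25B was at 466, TOP2A at 461 and MKI67 at 332. In bulk RNA, fewer cells in mitosis and less of these RNAs per cell cannot be told apart.

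**Figure D1:**
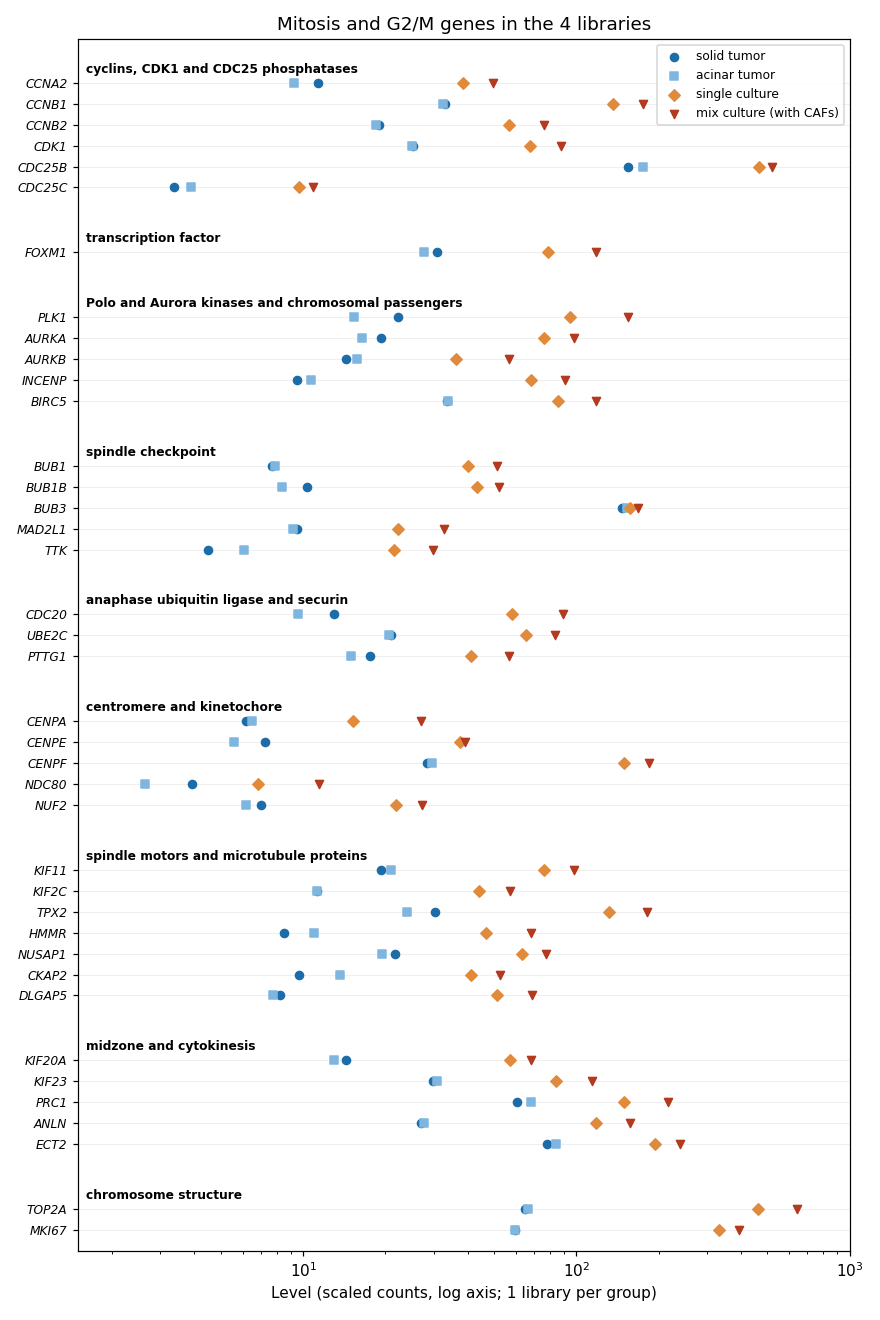
Level of each of the 39 genes (scaled counts, log axis) in the 4 libraries, 1 point per library, grouped by role. Cultures (orange and red) lie to the right of tumors (blue) for every gene, with BUB3 the one gene whose points nearly coincide (147 to 168 scaled counts), and positions of different genes cannot be compared here because values are not per length.

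The cultures were then set against the tumors. This contrast uses the same libraries as both comparisons below. The setting coincides with the way cells were collected (microdissection or sorting) and with the host, and these cannot be told apart. Both cultures lay above both tumors for 39 of 39 genes, where 38.7% of 14561 genes did so and 39.8% lay the other way. For 37 of 39 the gap was at least 2-fold on the log2(scaled count + 1) scale, against 8.22% of all genes, and for 0 it was 2-fold the other way, against 9.67%. The exceptions were NDC80 and BUB3. Between the lower culture and the higher tumor, the ratio of scaled counts had a median of 3.43 over the 39 genes. The levels that follow are in scaled counts, in the order solid tumor, acinar tumor, single culture and mix culture.

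The widest gap of the 39 genes was that of TOP2A. TOP2A, the topoisomerase that untangles chromosomes, was at 64.6, 66.7, 461 and 641. MKI67, the Ki-67 proliferation antigen that coats mitotic chromosomes, was at 59.4, 59.8, 332 and 394. Both tumors were thus nearly level with each other, and the lower culture was 6.91-fold and 5.55-fold above the higher tumor.

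Among the entry regulators, cyclin B1 (CCNB1) was at 33.1, 32.4, 136 and 175. Cyclin B2 (CCNB2) was at 19.0, 18.5, 56.7 and 76.2, and the kinase they activate, CDK1, at 25.3, 25.1, 67.9 and 88.0. These 3 partners had similar values in both tumors (acinar against solid fold 0.978 for CCNB1, 0.970 for CCNB2 and 0.992 for CDK1), below both cultures. Cyclin A2 (CCNA2), which acts in S phase and G2, was at 11.3, 9.28, 38.6 and 49.6, with fractional fragments in all 4 libraries. CDC25B and CDC25C encode phosphatases that remove the inhibitory phosphates from CDK1. CDC25B was at 154, 175, 466 and 521. CDC25C was at 3.36, 3.88, 9.69 and 10.9, few fragments in the tumors (24 and 25). FOXM1, the transcription factor of late cell cycle genes, was at 31.0, 27.6, 78.7 and 118, also with fractional fragments throughout.

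Polo-like kinase 1 (PLK1), which acts in centrosome maturation and cytokinesis, was at 22.2, 15.3, 94.8 and 154. Aurora A (AURKA), the spindle pole kinase, was at 19.3, 16.4, 76.4 and 97.8. Aurora B (AURKB), the kinase of the chromosomal passenger complex, was at 14.4, 15.7, 36.4 and 56.5. The cultures were above the tumors for all 3 kinases, by less for AURKB (2.33-fold between the nearest libraries) than for PLK1 (4.26-fold). INCENP, the scaffold of the passenger complex, was at 9.51, 10.7, 68.1 and 90.7. BIRC5 (survivin), its targeting subunit, was at 33.7, 34.0, 85.9 and 118. Subunits of 1 complex therefore differed in the size of the gap, 6.36-fold for INCENP and 2.53-fold for BIRC5.

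In the spindle checkpoint, the kinase genes BUB1 (7.69, 7.91, 40.1 and 51.4) and TTK (4.48, 6.05, 21.5 and 29.9) had gaps of 5.07-fold and 3.56-fold. BUB1B, encoding BubR1, was at 10.3, 8.37, 43.1 and 51.9. MAD2L1, encoding the Mad2 inhibitor of CDC20, was at 9.51, 9.15, 22.3 and 32.7. BUB3, the partner of BUB1 and BubR1, stood apart from these at 147, 153, 157 and 168, so that the lower culture was 1.02-fold the higher tumor. Downstream, CDC20, the activator of the anaphase-promoting complex, was at 13, 9.61, 57.9 and 89.2. UBE2C, its ubiquitin-conjugating enzyme, was at 21.0, 20.6, 65.2 and 83.4. Securin (PTTG1), the protein whose destruction frees separase, was at 17.6, 15.0, 41.2 and 56.8. All 3 were higher in both cultures, with the widest gap for CDC20 (4.46-fold).

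At the centromere, CENPA, the histone H3 variant that marks it, was at 6.15, 6.51, 15.2 and 27.1. CENPE, a kinetochore motor, was at 7.27, 5.58, 37.4 and 39.2, and CENPF, a large kinetochore protein, at 28.5, 29.5, 149.7 and 184. The NDC80 complex binds microtubules, and its subunit genes NDC80 (3.92, 2.64, 6.84 and 11.4) and NUF2 (6.99, 6.20, 21.9 and 27.3) were higher in both cultures. Between the nearest libraries the gap was 1.75-fold for NDC80, with 28 and 17 fragments in the tumors, and 3.13-fold for NUF2. From the acinar tumor to the mix culture the folds were close, 4.34 for NDC80 and 4.40 for NUF2. None of these gaps has an interval, so a difference between the 2 genes was not shown.

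For the spindle, KIF11, the motor that separates the poles, was at 19.3, 20.9, 76.0 and 97.7. The microtubule depolymerase KIF2C was at 11.2, 11.2, 44.0 and 57.0, and TPX2, the activator of Aurora A, at 30.3, 24.0, 132 and 182. HMMR, a spindle assembly protein, was at 8.53, 11, 46.6 and 68.0. The microtubule-binding proteins NUSAP1 (21.7, 19.5, 63.0 and 77.4), CKAP2 (9.65, 13.6, 41.3 and 52.4) and DLGAP5 (8.25, 7.75, 51.1 and 68.8) had gaps of 2.91-fold, 3.03-fold and 6.19-fold. In cytokinesis, the midzone motors KIF20A (14.3, 13, 57.2 and 68.0) and KIF23 (29.9, 30.9, 84.2 and 114) had gaps of 4.01-fold and 2.73-fold. PRC1, the microtubule bundler of the midzone, was at 60.8, 68.2, 149 and 217. The cleavage furrow scaffold ANLN was at 27.0, 27.6, 118 and 157, and ECT2, the exchange factor that activates RhoA there, at 78.2, 83.9, 194 and 239. Cultures were higher for all 12 of these genes.

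Per kilobase of exon (GENCODE 29 gene models, union of exons, available for all 39), CDC25B was the most abundant of the 39 RNAs in every library, at 38.8, 44.0, 117 and 131 scaled counts per kilobase. TOP2A was second in both cultures (80.0 and 111) and lower in the tumor order (11.2 in the solid tumor). BUB3 took second place in the tumors (18.8 and 19.5) and had 21.4 in the mix culture. CENPE (0.844 in the solid and 0.648 in the acinar tumor) was lowest in both tumors. The models are of another build and may not match the transcripts that were counted.

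The comparison of acinar with solid tumor asks whether gland-forming and sheet-forming tumor cells differ in these genes. As a list the 39 genes had no shared direction. The median log2 ratio was 0.00 over the 39 genes, and 0.01 over all 13979 genes. No gene was past 2-fold on the log2(scaled count + 1) scale, where 1.98% of all genes were higher and 2.55% lower by that much. Smaller differences were counted on the same scale, at least 25% higher or, for the inverse ratio, at least 20% lower. By these limits 3 genes were higher (15.9% of all genes) and 5 lower (18.3%), so both shares lay under the background. With a pseudocount of 5 each count was 1, where 10.6% of all genes were higher and 11.1% lower by these limits. The 95% interval of the fold (exact conditional binomial, counting error only) could be given for 35 genes with whole fragments in both tumors. It lay on the higher side of 1 for 2 genes (18.4% of all such genes) and on the lower side for 2 (16.7%).

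PLK1 was 1.45-fold lower in the acinar tumor (interval 1.12 to 1.88) and TPX2 1.26-fold lower (1.02 to 1.56). CKAP2 was 1.41-fold higher (1.02 to 1.97) and CDC25B 1.13-fold higher (1.04 to 1.23). CDC20 was 1.35-fold lower, with an interval that included no difference (0.971 to 1.90). For the abundant genes the intervals were narrow enough to bound the difference between these libraries. The acinar over solid fold was 1.03 for TOP2A (0.903 to 1.18), 1.01 for MKI67 (0.875 to 1.16) and 0.978 for CCNB1 (0.808 to 1.18). For low genes they were wide, as for NDC80 (fold 0.673, 0.346 to 1.27) and CDC25C (0.633 to 2.11), and a difference was not detectable at this depth.

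**Figure D2:**
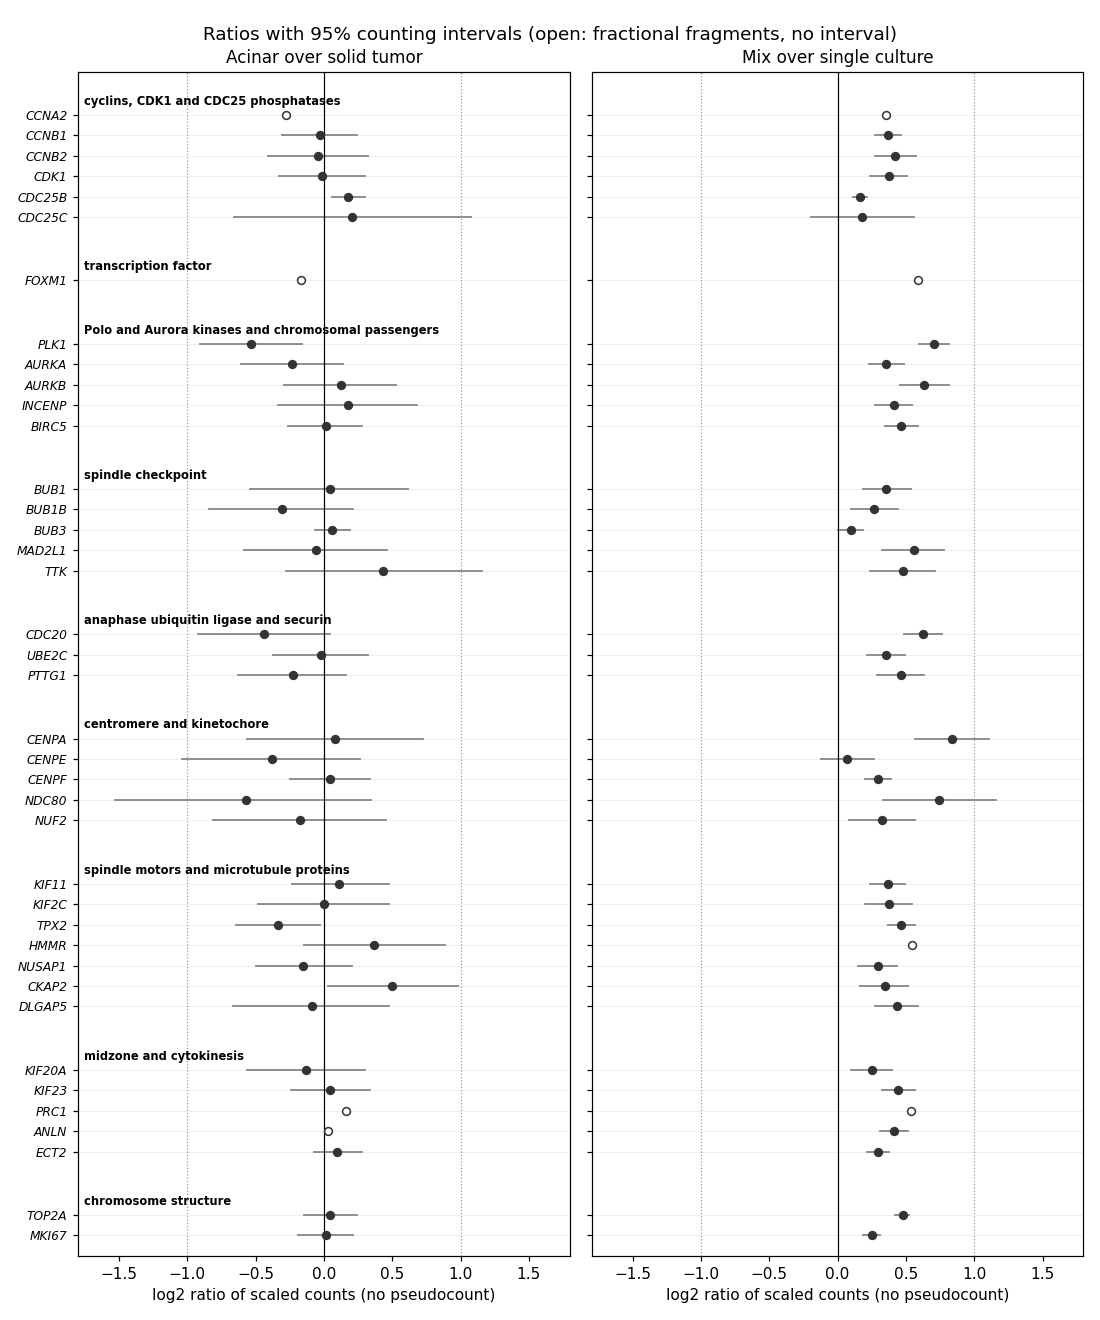
Log2 ratio of scaled counts for each gene, acinar over solid tumor (left) and mix over single culture (right), with 95% counting intervals as lines and open points where fragments were fractional and no interval was given. Tumor ratios scatter around 0, from NDC80 at the low end (few fragments, wide interval) to CKAP2 at the high end, while all 39 culture ratios lie above 0 and none passes the dotted 2-fold lines.

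The comparison of mix with single culture asks whether A549 cells from colonies with CAFs differ in these genes. All 39 genes were higher in the mix culture, by a modest amount. Over the 39 genes the median log2 ratio was 0.37, from 0.07 to 0.80, and over all 13485 genes the median was 0.01. A ratio above 0 was found for 52.0% of all genes. In plain scaled counts the median fold was 1.30. At least 25% higher were 28 of 39 genes, against 12.9% of all genes, and at least 20% lower were 0, against 16.4%. None was past 2-fold higher (0.682% of all genes). The interval of the fold lay above 1 for 33 of the 35 genes that had one, against 23.4% of genes with an interval, and below 1 for 0, against 20.4%.

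CENPA had the largest difference, 1.79-fold (1.48 to 2.16, 171 and 337 fragments). NDC80 was 1.67-fold higher (1.26 to 2.23) and PLK1 1.63-fold (1.51 to 1.76). AURKB was 1.55-fold higher (1.37 to 1.76) and CDC20 1.54-fold (1.40 to 1.7). These lead genes thus came from the kinetochore, the mitotic kinases and the anaphase machinery. FOXM1 was at 118 against 78.7 scaled counts, a fold of 1.5 without an interval because its fragments were fractional. TOP2A was 1.39-fold higher (1.34 to 1.44) and MKI67 1.19-fold (1.14 to 1.24).

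By role, the Polo, Aurora and passenger genes had the highest median among groups of more than 1 gene (0.46, 5 genes), followed by the anaphase ligase and securin genes (0.45, 3 genes) and the cytokinesis genes (0.41, 5 genes). The cyclin, CDK1 and CDC25 group had 0.36 (6 genes) and the kinetochore group 0.31 (5 genes). The smallest differences were in CENPE (39.2 against 37.4 scaled counts, fold 1.05, 0.918 to 1.2), BUB3 (1.07, 1.0 to 1.14), CDC25C (1.13, 0.872 to 1.47) and CDC25B (1.12, 1.08 to 1.16). CDC25C and CENPE were the 2 genes whose interval included no difference.

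Other cell cycle lists were described in the same way, by their counts and medians. Of 68 other mitotic genes, 65 had a ratio above 0 in the mix culture, as did 52.0% of all genes (list median 0.37). At least 25% higher were 42 (61.8%), against 12.9% of all genes. None was at least 20% lower, against 16.4%. None was past 2-fold, where 0.682% of all genes were higher and 1.74% lower by that much. SKA3, a kinetochore gene, had the highest ratio (18.7 against 9.73 scaled counts) and BORA, a cofactor of Aurora A, the lowest (8.27 against 9.71). All 46 S phase and replication genes were above 0 and 38 (82.6%) were at least 25% higher, against the same shares of all genes (median 0.52). The replication polymerase subunit POLE2 had the highest ratio in this list (12.8 against 6.13 scaled counts, 2.09-fold, 1.56 to 2.81) and POLE the lowest (76.8 against 70.8). E2F1, the transcription factor of G1/S genes, was 1.62-fold higher (1.42 to 1.84). In the tumors, where 15.9% of all genes were at least 25% higher in the acinar library and 18.3% at least 20% lower, the S phase list had 11 (23.9%) and 3 (6.52%) such genes (median 0.10), from TYMS (23.0 against 32.3 scaled counts in acinar and solid) to CCNE2 (3.75 against 1.71). The other mitotic genes had 9 (13.2%) and 7 (10.3%), both shares below those of all genes (median 0.01), from SGOL1 (2.64 against 4.89) to CENPW (10.7 against 5.73). Of the further lists in the tumors, the anaphase-promoting complex list had 1 and 1 of 17 (median 0.03), from FBXO5 (5.43 against 7.69) to ANAPC7 (94.7 against 74.4). The DREAM, MuvB and NF-Y list had 4 (23.5%) and 0 of 17 (median 0.09), from LIN37 (15.5 against 18.3) to MYBL2 (30.2 against 23.2). The G1 list had 3 and 0 of 5 (median 0.35), from CDK4 (154 against 167) to CDK6 (68.2 against 40.0).

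The anaphase-promoting complex list holds its subunits, its activator FZR1, its inhibitor FBXO5 and the ubiquitin-conjugating enzyme UBE2S. It had 3 of 17 genes (17.6%) at least 25% higher in the mix culture, near the 12.9% of all genes, and none at least 20% lower (median 0.10), from ANAPC13 (46.1 against 52.1) to UBE2S (91.1 against 59.1). DREAM, MuvB and NF-Y components also had 3 of 17 (17.6%) and none, likewise near the share of all genes (median 0.09). MYBL2 (B-Myb), the cell cycle activator of MuvB, led that list at 92.8 against 55.3 scaled counts (1.68-fold, 1.52 to 1.85). TFDP2, a dimer partner of E2F, was lowest at 21.9 against 26.2. Of the 5 G1 cyclins and kinases that passed the filter, 1 was at least 25% higher (20.0%, against 12.9% of all genes). It was CDK2 (65.8 against 40.0), and CDK6 was lowest (66.1 against 66.9).

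Of the 5 CDK inhibitors that passed the filter, 2 were at least 20% lower in the mix culture, as were 16.4% of all genes (median -0.26). The ratio was below 0 for all 5, as for 48.0% of all genes, but the intervals of CDKN1B (fold 0.939, 0.828 to 1.07) and CDKN2D (0.977, 0.685 to 1.39) included no difference. CDKN1A, encoding p21, was 2.04-fold lower in the mix culture (125 against 254 scaled counts, 1.92 to 2.17), where 1.74% of all genes were past 2-fold lower. CDKN1C, encoding p57, was at 2.58 against 4.98 (1.93-fold lower, 1.23 to 3.08). In the tumors 3 of the 5 were above 0 and 2 below (median 0.29). CDKN1A was 1.56-fold higher in the acinar library (223 against 143, 1.44 to 1.69) and CDKN1C 2.12-fold higher (58.3 against 27.5, 1.78 to 2.53), while CDKN1B, the lowest of the list, was 1.17-fold lower (69.5 against 81.4, 1.03 to 1.33). CDKN2A, which A549 cells are known to have lost, had 0.140 scaled counts (1 fragment) in the solid tumor and was listed at 0 in the other libraries, where 3 fragments correspond to 0.242 to 0.465. CDKN2B was listed at 0 in all 4, and both genes were chosen after their values were seen.

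Between cultures and tumors the same 6 lists and the 39 genes were compared by 1 difference per gene (mean log2 level of the cultures minus that of the tumors). The median was 2.0 for the 39 genes, 1.63 for the other mitotic genes, 1.12 for the S phase genes, 0.22 for the G1 cyclins and kinases, 0.20 for the DREAM group, -0.19 for the anaphase-promoting complex list and -0.23 for the CDK inhibitors, against -0.02 for all genes. At least 2-fold higher by this measure were 38 of the 39 genes, 50 of 68, 28 of 46, 0 of 5, 4 of 17, 3 of 17 and 0 of 5, where 12.7% of all genes were. At least 2-fold lower, as were 15.0% of all genes, were 1 G1 gene and 1 CDK inhibitor (CDKN1C). The G1 gene was cyclin D1 (CCND1), at 325, 416, 179.8 and 185. The other 4 measured G1 genes were above 0, as were 49.1% of all genes, with CDK2 highest (26, 34.6, 40.0 and 65.8). CDK4 was only just above, at 0.04.

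**Figure D3:**
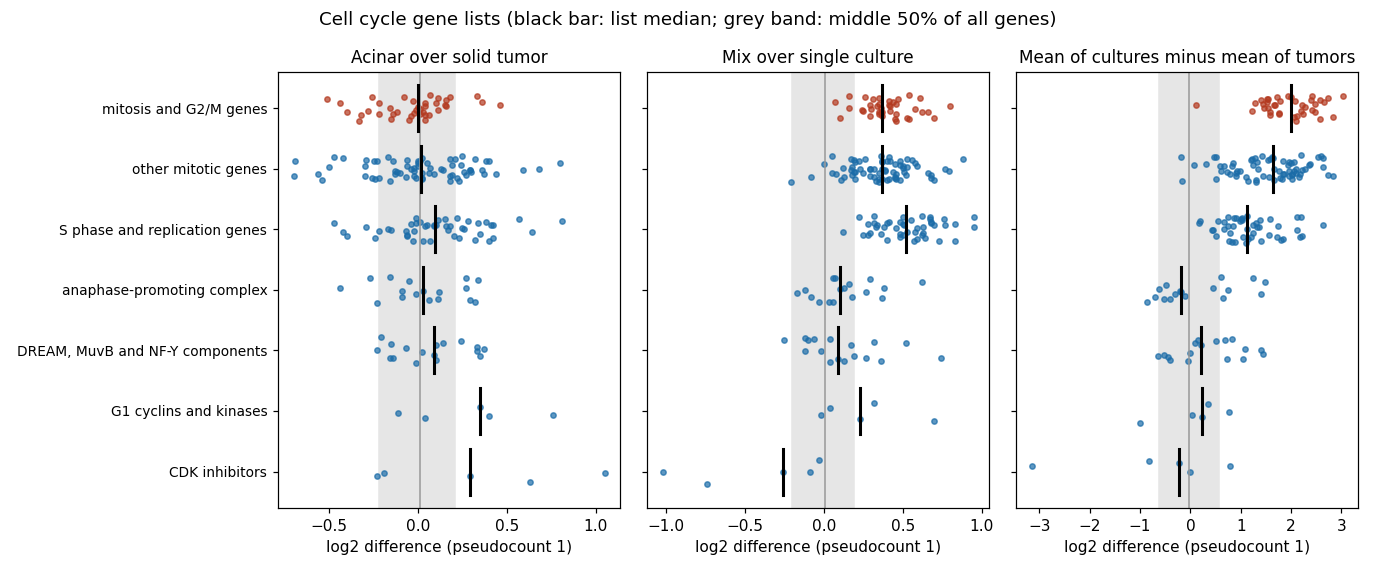
Log2 differences for the 39 mitosis and G2/M genes (red) and 6 other cell cycle lists (blue), 1 point per gene, with the list median as a black bar and the middle 50% of all genes as a grey band. In the culture comparison the mitotic and S phase lists have medians of 0.37 and 0.52 and the CDK inhibitors -0.26, and in the cultures against the tumors the medians step down from 2.0 for the 39 genes to -0.19 for the anaphase-promoting complex list and -0.23 for the CDK inhibitors.

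The A549 label was checked with 13 epithelial and line markers, whose summed level was 20631, 24887, 21323 and 19592 scaled counts in the same order. Within it, KRT19 (607, 818, 33.4 and 15.1) and EPCAM (20.3, 28.1, 2.31 and 2.09) were low in the cultures. Fibroblasts can divide, so their markers were listed beside the mix culture result. The 15 fibroblast markers had a summed level of 119.9 (single culture) and 137 (mix culture), of which FBLN1 was 75 and 89.4. COL1A1 was 1.53-fold higher in the mix culture (19.3 and 29.5, 1.29 to 1.82) and THY1 was at 1.33 and 2.01, while ACTA2 was lower there (21.4 and 13.3). In the single culture 7 of the 15 were listed at 0 and in the mix culture 5, DCN, POSTN, DPT, FAP and MFAP5 in both. COL1A2 was at 0 and 0.161. In the tumors the sum was 312 and 670.4, of which MFAP5 was 225 and 563. Leukocyte markers summed to 239, 146, 49.9 and 44.1, and most of the tumor sums was CD68 (175 and 113). LYZ was also higher in the tumors, and PTPRC was at 1.26 and 1.40 there. CD14 went the other way (9.65, 2.64, 15.4 and 13.4). By mean level it was the 1 marker higher in the cultures of the 5 that passed the filter. The 7 endothelial and 4 erythroid markers summed to at most 1.68 and 0.420. Host cells are mouse cells and these are human symbols, so the tumor values do not measure the host's share, and the part of any other cell in the results was not tested.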

How the data were processed

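RNA was sequenced from 4 A549 libraries, 1 per group, grouped by title. The submitters' processing notes name Cuffdiff 2.2.1, TopHat2 2.0.13, Bowtie2 2.2.3, SAMtools 1.0 and the build hg19, without roles. The annotation, filters and strand were not given in the sources used here. A table by the authors, as deposited, holds 1 signal value per gene and library, a raw signal per the file headers. Of the deposited signal values above 0, 90.0% to 91.2% were multiples (tolerance 0.05 fragment) of 1 step per library (1.25, 1.39, 0.795 and 0.720), as for fragment counts divided by a size factor. The rest were fractional, and such genes got no interval. No count model was fitted, since no group has replicates.

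Values were divided by 8.94, which puts the mean library total at the CPM scale, and keep the authors' scaling. Ratios were log2((value + 1)/(value + 1)) over genes that reached 1 in any library compared, with limits at 2-fold and at 25% higher or 20% lower. Folds printed for genes are plain ratios. Fold intervals are 95% Clopper-Pearson and cover counting error only, since each group holds 1 library. No molecular identifiers are named, and the intervals take every fragment as independent. Alternatives were other pseudocounts, filters and scalings, and whole-fragment genes only. The genes, lists, limits and naming rule (all 39 genes; the highest and lowest gene of each list; CDKN1A, MYBL2 and E2F1) were chosen with earlier results of these data known. All 248 list entries matched a symbol, 4 by an older one. Python 3.11.15, numpy 2.4.6, pandas 2.3.3, scipy 1.17.1 and matplotlib 3.10.9 were used.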

Additional observations from a re-analysis of the deposited data

How the results depend on the processing

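With a pseudocount of 5 the median of the cultures over the tumors was 1.64 in place of 2.0. In the tumors 1 gene was then at least 25% higher and 1 at least 20% lower, in place of 3 and 5. The shares of all genes were 10.6% and 11.1% at that setting, in place of 15.9% and 18.3%. The other medians over the 39 genes stayed within a limit set by the typical width of the single-gene counting intervals. That limit is not the error of a median. The other counts moved by no more than 1.5 times. The settings were pseudocounts of 0.1 and 5, no filter, a filter of 5, scaling by totals, upper quartiles or median of ratios, and whole-fragment genes only. The mix over single median ranged from 0.35 to 0.37, and its count at 25% or more from 24 (of 35 genes) to 28. The share of all genes at 25% or more ranged from 8.01% to 14.5% across the same settings. No gene past either limit changed sign. No paired analysis was possible because each group holds 1 library, and no library could be left out for the same reason. Depth limits the low genes of the tumors most, where 1 fragment is 0.140 or 0.155 scaled counts.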

Other observations

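Some mitotic genes outside the 39 did not share the gap between cultures and tumors. WEE1, the kinase that holds CDK1 inactive, was at 19.0, 23.4, 17.2 and 19.9 scaled counts in the solid tumor, acinar tumor, single culture and mix culture, and BORA was at 10.6, 9.59, 9.71 and 8.27. They were the 2 of 68 genes in that list whose mean level was lower in the cultures. HMGB2, a chromatin protein gene chosen after its values were seen, was at 55.4, 60.9, 53.0 and 70.3. At the other end, CASC5, the kinetochore scaffold also called KNL1, was at 2.94, 1.71, 20.7 and 24.0. Among replication genes, the clamp loader gene RFC4 was at 21.8, 20.9, 19.2 and 30.2 and the replication initiation gene MCM10 at 4.75, 4.96, 26.7 and 46.2. In the anaphase-promoting complex list the ends were ANAPC15 (65.0, 70.8, 38 and 35.9) and UBE2S (24.5, 26.5, 59.1 and 91.1), the ubiquitin-conjugating enzyme that works after UBE2C. Among DREAM, MuvB and NF-Y genes they were LIN37 (18.3, 15.5, 9.69 and 11.2) and RBL1, encoding p107 (9.09, 9.77, 24.2 and 31.4). Among CDK inhibitors CDKN1C was lowest in the cultures relative to the tumors (27.5, 58.3, 4.98 and 2.58) and CDKN2C, encoding p18, highest (27.4, 23.9, 48.9 and 40.7).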
